A study of Homo sapiens with 82 samples.

Results

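KRT20, VIL1, ALPI, ANPEP and CDH17 are markers of the mature intestinal epithelium. CEACAM1, CEACAM5, CEACAM6 and CEACAM7 are members of the carcinoembryonic antigen family, and CD200, a membrane glycoprotein gene outside that family, was grouped with them. The RNA levels of these 10 genes were followed in HT29 cells exposed to ligands of LXR or PPARG. The 10 genes were chosen by symbol among the 51838 rows of the RNA-seq count tables, and each symbol had a single row. They, and the gene lists set beside them below, were chosen with earlier results of these data known. Their counts beside the shares of all genes are therefore a description and no independent test. HT29 is a human colorectal adenocarcinoma line, which the study obtained from ATCC and kept in phenol red-free medium with charcoal-treated serum before the drugs were added. The 8 groups were cells given DMSO, GW3965, T0901317 or rosiglitazone for 24 or 48 h, each drug at 10 μM in DMSO and each group with 4 RNA-seq libraries. GW3965 and T0901317 are LXR agonists and rosiglitazone is a PPARG agonist. All values thus come from 1 cell line, and p-values rest on the spread between libraries of the same group, pooled over the groups of a fit. According to the methods each treatment was done 4 times, but whether on separate passages or days is not given in the sources used here.

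Enterocytes arise from crypt stem cells and acquire, as they move up the crypt axis, an apical brush border made of microvilli, hydrolases anchored in its membrane and lateral contacts held by cadherins. KRT20 encodes an intermediate filament keratin of the mature surface epithelium, VIL1 encodes villin, an actin-bundling protein of microvilli, and ALPI and ANPEP encode intestinal alkaline phosphatase and aminopeptidase N, hydrolases of the brush border. CDH17 encodes the liver-intestine cadherin, an adhesion protein of the lateral membrane. The CEACAM genes encode adhesion molecules of the immunoglobulin superfamily. CEACAM5, the carcinoembryonic antigen, CEACAM6 and CEACAM7 are held in the membrane by a lipid anchor, while CEACAM1 crosses it and carries a cytoplasmic tail. CD200 encodes a membrane glycoprotein that binds an inhibitory receptor on myeloid cells.

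CEACAM7, CEACAM5 and CEACAM6 are consecutive protein-coding genes of chromosome 19 in RefSeq on GRCh38.p14, CEACAM1 lies farther along the same chromosome, and KRT20 lies on chromosome 17 between KRT12 and KRT23. RefSeq promoters of GRCh38.p14 matched 8 of the 10 genes. The 250 bases before the start are printed for KRT20, CEACAM5 and CEACAM6, whose RNA rose together with rosiglitazone, and for CEACAM7 and CEACAM1, whose promoters resemble those of the other CEACAM genes. They span chr17:40885243-40885492 on the minus strand for KRT20, chr19:41708376-41708625 on the plus strand for CEACAM5, chr19:41755280-41755529 on the plus strand for CEACAM6, chr19:41688271-41688520 on the minus strand for CEACAM7 and chr19:42528482-42528731 on the minus strand for CEACAM1, each read 5′ to 3′ toward the gene. Capitals mark matches, on either strand, to 4 short motifs, namely AGGTCA (the core element of nuclear receptor sites), TTTATG (CDX factors), CACGTG (the E-box) and GGGCGG (the GC box).
KRT20: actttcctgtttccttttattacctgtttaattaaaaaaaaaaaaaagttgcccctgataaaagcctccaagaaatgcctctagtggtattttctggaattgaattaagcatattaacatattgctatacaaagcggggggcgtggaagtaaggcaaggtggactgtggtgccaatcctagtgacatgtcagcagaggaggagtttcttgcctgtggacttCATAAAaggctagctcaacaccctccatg
CEACAM5: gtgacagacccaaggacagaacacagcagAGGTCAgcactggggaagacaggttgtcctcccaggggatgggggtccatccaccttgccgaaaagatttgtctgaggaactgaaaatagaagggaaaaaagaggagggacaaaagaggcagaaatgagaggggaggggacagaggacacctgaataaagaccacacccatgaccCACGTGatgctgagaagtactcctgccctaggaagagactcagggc
CEACAM6: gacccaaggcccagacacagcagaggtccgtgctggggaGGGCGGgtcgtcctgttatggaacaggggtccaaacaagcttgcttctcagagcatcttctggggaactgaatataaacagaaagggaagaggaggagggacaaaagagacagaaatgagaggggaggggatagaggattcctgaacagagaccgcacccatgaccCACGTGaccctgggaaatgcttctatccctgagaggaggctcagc
CEACAM7: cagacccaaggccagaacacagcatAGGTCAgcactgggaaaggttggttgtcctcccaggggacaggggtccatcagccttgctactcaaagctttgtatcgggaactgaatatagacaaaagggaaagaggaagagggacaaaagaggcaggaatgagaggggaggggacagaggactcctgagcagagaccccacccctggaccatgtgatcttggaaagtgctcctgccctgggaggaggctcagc
CEACAM1: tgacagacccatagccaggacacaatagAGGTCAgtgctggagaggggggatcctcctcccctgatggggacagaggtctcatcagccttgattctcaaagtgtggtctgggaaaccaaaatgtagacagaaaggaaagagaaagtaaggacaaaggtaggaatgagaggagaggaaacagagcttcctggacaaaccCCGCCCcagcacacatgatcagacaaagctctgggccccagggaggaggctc
AGGTCA stood in the windows of CEACAM5, CEACAM7 and CEACAM1, at base 221, 225 and 222 before the start, and 12.1% of the 35116 RefSeq promoters of this length held it. CACGTG stood in those of CEACAM5 and CEACAM6, at base 46 and 45 before the start, against 6.34% of all promoters. GGGCGG was found in CEACAM6 and, as its reverse complement CCGCCC, in CEACAM1, against 42.6% of all promoters. The window of KRT20 held the reverse complement CATAAA of the CDX motif at base 29 before the start, against 9.64% of all promoters. Aligned end to end, the windows of CEACAM5 and CEACAM7 were identical at 80.5% of aligned columns, CEACAM6 and CEACAM7 at 79.9% and CEACAM5 and CEACAM6 at 74.6%. The window of CEACAM1 matched those 3 at 65.1% to 71.3%, and that of KRT20 matched the CEACAM windows at 44.4% to 47.8%. Because the CEACAM windows are alike, matches at like positions in them are not independent of each other. The windows of ALPI and ANPEP, which are not printed, also held AGGTCA and GGGCGG. All these matches describe letters and no binding.

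The 32 libraries held between 21044798 and 51332656 counts each. Levels are given as CPM, counts scaled to libraries of equal size and corrected for composition by TMM. They are not corrected for gene length, so levels of different genes are not compared. In bulk RNA a lower level can come from fewer cells of a kind or from less RNA per cell, and the data cannot tell these apart. The epithelial keratins KRT8 and KRT18 stood at 9448 ± 365 and 7195 ± 276 CPM (SD, n = 4) with DMSO at 24 h, while the leukocyte marker PTPRC had a mean of 0.00629 CPM in that group and CD3E and the fibroblast markers COL1A2 and DCN had no count there. Other markers were counted, since the 6 fibroblast markers summed to 3.75 to 6.06 CPM and the 6 immune markers to 12.1 to 14.6 CPM in that group. Of 2 fibroblast markers tested, 1 passed upward with rosiglitazone at 24 h and 1 with GW3965 at 48 h, against 5.81% and 16.1% of all genes. Known targets of the drugs moved in the libraries so labelled, though some moved with both kinds of agonist. Of 8 drug target genes tested at 24 h, GW3965 raised 6, T0901317 raised 5 and rosiglitazone raised 6 and lowered 1. Over all genes 1.86%, 1.33% and 5.81% rose with these drugs, and 6.52% fell with rosiglitazone. ABCA1, a cholesterol exporter and LXR target, stood at 4.65 ± 0.283 CPM with DMSO, 114 ± 8.55 with GW3965 and 60.9 ± 6.33 with T0901317 at 24 h, and PDK4, a kinase and PPAR target, stood at 4.66 ± 0.298 CPM with DMSO and 28.0 ± 2.44 with rosiglitazone. Of the immune markers, CD14 rose with the LXR agonists at 48 h, by 1.94 (GW3965, adjusted p = 1.29e-07) and 2.54 (T0901317, adjusted p = 3.11e-09), CD68 rose with all 3 drugs, and the summed level of the 6 immune markers was 9.09 to 12.5 CPM with DMSO and 16.9 to 21.5 CPM with GW3965 at 48 h. Their part in the results was not tested.

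Replicate 1 of GW3965 at 24 h stood apart from the other 3 libraries of its group, with a chi-square per gene of 31.8 to 73.2 against 5.30 to 11.5 among those 3. It had the highest KRT20 and the lowest VIL1 of the group. Without it the log2 fold changes for GW3965 at 24 h were 0.79 for KRT20 (adjusted p = 3.00e-10), 0.73 for CEACAM5 (adjusted p = 7.53e-08), 0.44 for CEACAM6 (adjusted p = 0.000137) and -0.07 for VIL1 (adjusted p = 0.559), and T0901317 against GW3965 gave -0.37 for KRT20 (adjusted p = 9.41e-05), -0.64 for CEACAM5 (adjusted p = 3.70e-06) and 0.46 for CEACAM1 (adjusted p = 0.00106).

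Of the 10 genes, 9 passed the filter on low counts. ALPI did not, with 35 counts in all, found in 11 of the 32 libraries and never above 6, so that no change in it was detectable at this depth. A count of 0 allows a level of up to 3 counts, which is 0.0584 CPM in the deepest library and 0.143 CPM in the shallowest, and this limit covers counting error alone. ANPEP (0 to 73 counts per library) and CEACAM7 (5 to 59 counts) were tested at levels under 1.5 CPM, whereas KRT20 never fell below 7480 counts and VIL1 never below 1959. A gene is said to have passed where its adjusted p was under 0.01 in edgeR's quasi-likelihood test, with Benjamini-Hochberg adjustment over all genes tested.

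With rosiglitazone, KRT20 and 3 or 4 CEACAM genes rose while VIL1, CDH17 and CD200 fell. At 24 h, 4 of the 9 tested genes passed upward and 3 downward, against 5.81% and 6.52% of all 21781 genes, and the median log2 fold change of the 9 was 0.65 against -0.02 for all genes. At 48 h, 5 passed upward and 4 downward, against 12.3% and 13.1% of all 22470 genes, with medians of 0.28 and -0.01. GW3965 raised KRT20, CEACAM5 and CEACAM6 at 24 h, so that 3 passed upward, against 1.86% of all genes, while 0.868% passed downward. At 48 h with GW3965, 4 passed upward and CEACAM1 downward, against 16.1% and 17.5%. With T0901317, KRT20 was the gene that passed at 24 h, upward, against 1.33% of all genes upward and 0.119% downward, and 5 passed upward at 48 h, against 14% upward and 16.1% downward. The 3 drugs of a time point share their DMSO libraries, so these counts are not independent of each other.

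**Figure D1:**
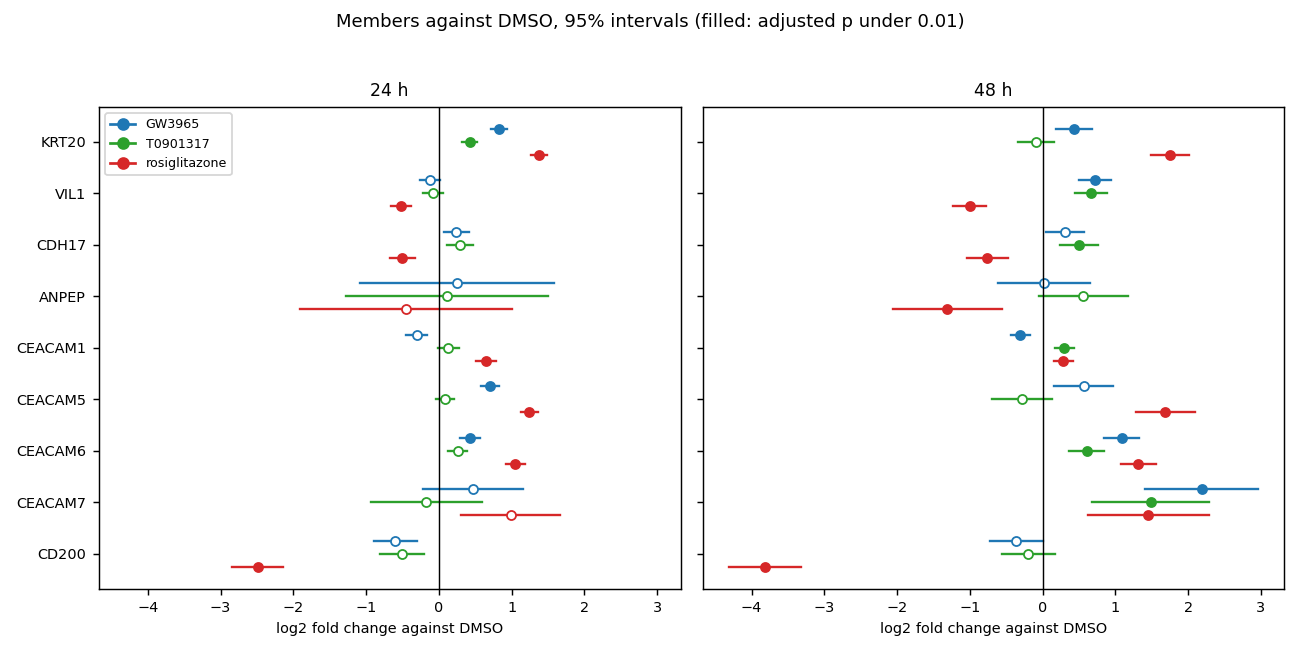
Log2 fold change against DMSO (x axis) of the 9 tested genes (rows) at 24 h (left) and 48 h (right), with 95% intervals; filled points passed the test at an adjusted p under 0.01. With rosiglitazone, KRT20, CEACAM5 and CEACAM6 lie between 1.05 and 1.75 to the right of 0 and CD200 lies at -2.49 and -3.81.

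KRT20 separated all 4 groups at 24 h. Its 4 DMSO libraries at 24 h stood at 267, 246, 255 and 258 CPM, and the rosiglitazone libraries at 655, 679, 664 and 675 CPM. GW3965 gave 491, 449.7, 429.8 and 452 CPM and T0901317 gave 347, 352, 326 and 347 CPM. The groups did not overlap, and the order was rosiglitazone, GW3965, T0901317 and DMSO. The log2 fold changes against DMSO were 1.38 (standard error 0.0513, adjusted p = 5.85e-13) for rosiglitazone, 0.83 (0.0507, adjusted p = 1.40e-09) for GW3965 and 0.42 (0.0505, adjusted p = 2.48e-05) for T0901317. T0901317 no longer passed when the libraries of both times were fitted together (adjusted p = 0.0107).

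At 48 h the DMSO libraries of KRT20 stood at 330.1, 297, 345 and 346 CPM and those of rosiglitazone at 810.5, 1010.2, 1508 and 1171 CPM. The lowest rosiglitazone library was thus still more than 2 times the highest DMSO library, and the log2 fold change was 1.75 (standard error 0.123, adjusted p = 1.71e-09). GW3965 libraries, at 435, 457, 421 and 472 CPM, also stood above DMSO without overlap. Their log2 fold change of 0.43 passed (adjusted p = 0.00589), but not when any library of either group other than GW3965 replicate 3 was left out (adjusted p = 0.0106 to 0.0248). T0901317 libraries, at 326, 312, 297 and 305 CPM, overlapped with DMSO (log2 fold change -0.09, 95% interval -0.34 to 0.16). Over the 8 groups, KRT20 was highest with rosiglitazone at 48 h and lowest with DMSO at 24 h, a ratio of means of 4.39, and neighbouring ranges overlapped between GW3965 at 24 and 48 h and among T0901317 at 24 h, DMSO at 48 h and T0901317 at 48 h.

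CEACAM5 followed a like order. At 24 h its libraries stood at 16.1, 15.1, 14.6 and 16.1 CPM with DMSO, at 37.3, 36.5, 37.9 and 35.7 CPM with rosiglitazone and at 24.4, 24.98, 26.7 and 25.3 CPM with GW3965. These 3 groups did not overlap, with log2 fold changes of 1.25 (standard error 0.0588, adjusted p = 1.65e-11) for rosiglitazone and 0.71 (0.0587, adjusted p = 1.02e-07) for GW3965. T0901317 libraries, at 15.1, 17.3, 17.0 and 16.4 CPM, overlapped with DMSO, with 3 of the 4 above the highest DMSO library (log2 fold change 0.09, 95% interval -0.04 to 0.21). At 48 h rosiglitazone libraries spread from 32.6 to 79.8 CPM (mean 52.8 ± 20.9, SD, n = 4) against 14.4 to 17.8 CPM with DMSO, and the log2 fold change was 1.68 (standard error 0.193, adjusted p = 1.27e-06). With GW3965 the values of 22.1 to 26.5 CPM did not overlap with DMSO, yet the log2 fold change of 0.56 (0.193) did not pass (adjusted p = 0.0223). It passed when only these 2 groups were fitted (adjusted p = 7.56e-06), in the fit of both times (adjusted p = 0.00279), with the replicate block (adjusted p = 0.0084) and with no filter (adjusted p = 0.00698), but not in DESeq2 (adjusted p = 0.0279), with either other scaling or with the CPM filter (adjusted p = 0.0194 to 0.0258).

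CEACAM6 rose with rosiglitazone and GW3965 at both times and with T0901317 at 48 h. At 24 h DMSO libraries stood at 44.5, 38.7, 41.4 and 45.8 CPM, and rosiglitazone libraries at 83.4, 89.99, 90.7 and 89.9 CPM, for a log2 fold change of 1.05 (standard error 0.0632, adjusted p = 4.22e-10). GW3965, at 56.2, 57.4, 56.2 and 59.99 CPM, gave 0.43 (0.0629, adjusted p = 0.000166), and T0901317, at 46.9 to 56.3 CPM, gave 0.26 without passing (adjusted p = 0.0311). Every drug group thus lay above the DMSO group at 24 h. By 48 h DMSO libraries had dropped to 17.5, 17.6, 17.6 and 18.04 CPM. GW3965 libraries stood at 35.0, 38.3, 33.9 and 43.7 CPM and T0901317 libraries at 25.5, 27.4, 25.3 and 29.6 CPM, with log2 fold changes of 1.09 (0.115, adjusted p = 2.69e-07) and 0.61 (0.115, adjusted p = 0.000255). Rosiglitazone libraries, at 36.2, 38.0, 56.6 and 47.6 CPM, gave 1.31 (0.115, adjusted p = 4.23e-08). The 48 h rosiglitazone level of 44.6 ± 9.46 CPM overlapped with the 24 h DMSO level of 42.6 ± 3.18 CPM (SD, n = 4), so the difference from DMSO at 48 h was measured against a lower control.

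**Figure D2:**
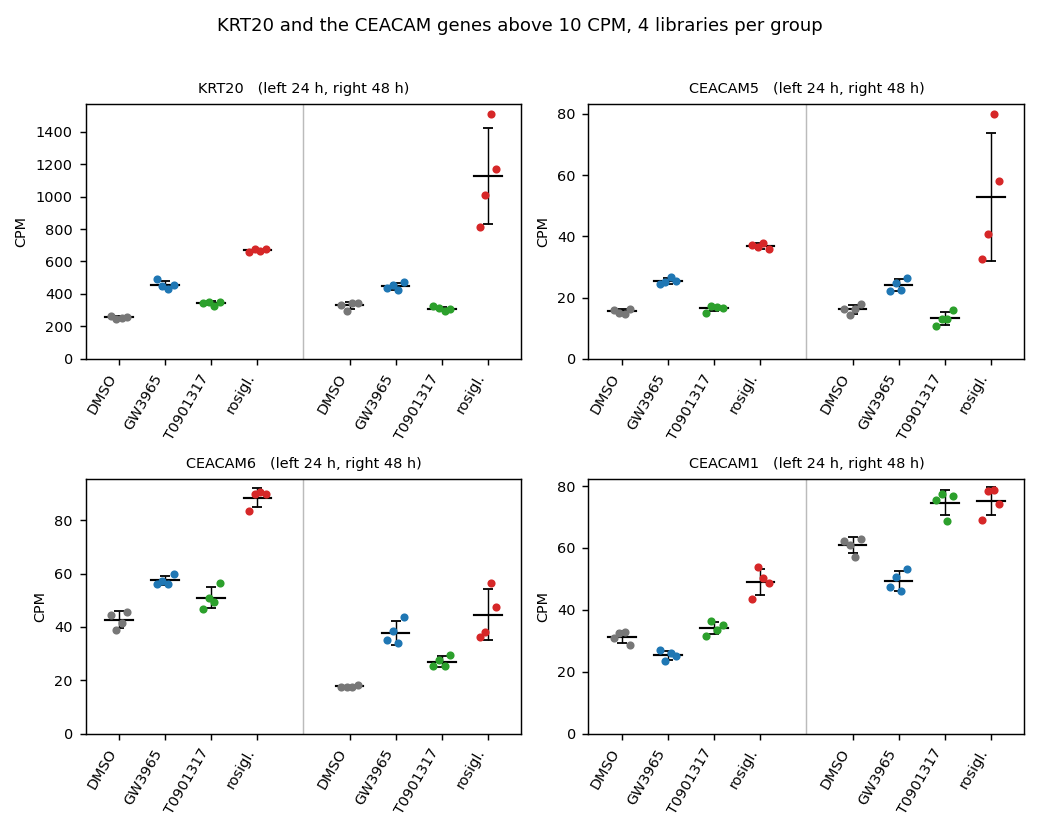
CPM (y axis, from 0) of KRT20, CEACAM5, CEACAM6 and CEACAM1 in each library (points) of the 4 groups at 24 h (left in each panel) and 48 h (right), with bars for the mean and SD of 4 libraries. Rosiglitazone libraries are highest in every panel at 24 h, KRT20 spreads from 810.5 to 1508 CPM with rosiglitazone at 48 h, and CEACAM6 with DMSO is lower at 48 h than at 24 h.

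CEACAM1 separated the LXR agonists. GW3965 libraries were below DMSO at both times, at 23.5 to 26.9 against 28.5 to 32.7 CPM at 24 h and at 46.0 to 53.2 against 57.1 to 62.9 CPM at 48 h. The log2 fold change was -0.30 (standard error 0.0694) at 24 h, where it did not pass (adjusted p = 0.0119), and -0.31 (0.0629) at 48 h, where it did (adjusted p = 0.000497). At 24 h it passed without DMSO replicate 4 (adjusted p = 0.0082) or GW3965 replicate 1 (adjusted p = 0.00756). T0901317 libraries stood at 31.6 to 36.3 CPM at 24 h (log2 fold change 0.13, adjusted p = 0.477) and at 75.4, 77.5, 68.7 and 76.7 CPM at 48 h, above every DMSO library (0.29, standard error 0.0625, adjusted p = 0.000782). Rosiglitazone raised CEACAM1 at 24 h, with a log2 fold change of 0.65 (0.0688, adjusted p = 9.94e-07). At 48 h the change was 0.28 (0.0627, adjusted p = 0.00135). The call at 48 h rested on the scaling, since without TMM the difference was 0.10 (adjusted p = 0.160). CEACAM1 lies on the strand opposite to LIPE-AS1, a long noncoding gene that spans it in RefSeq. LIPE-AS1, counted in the files as AC011497.1, stood at 4.22 ± 0.304 CPM with DMSO and 6.14 ± 0.498 with rosiglitazone at 24 h (SD, n = 4). The strand setting of the counting is not given in the sources used here, so reads from the overlapping part cannot be assigned to one of these genes with certainty.

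CEACAM7 was counted at very low levels. At 24 h no drug passed, and the rosiglitazone libraries at 0.545, 0.923, 1.01 and 0.427 CPM overlapped with DMSO at 0.368, 0.479, 0.380 and 0.224 CPM. At 48 h all 3 drugs stood above DMSO, whose libraries were at 0.147, 0.177, 0.268 and 0.282 CPM. GW3965 libraries, at 1.02, 0.840, 1.27 and 0.936 CPM, gave a log2 fold change of 2.18 (standard error 0.370, adjusted p = 7.53e-05). T0901317 gave 1.49 (0.386, adjusted p = 0.00415) and rosiglitazone 1.45 (0.398, adjusted p = 0.00706). Both calls were fragile, since T0901317 did not pass without DMSO replicate 1 or 2 or T0901317 replicate 2 or 4 (adjusted p = 0.0150 to 0.0221), and rosiglitazone did not pass without any single DMSO library or its own replicate 1 or 4 (adjusted p = 0.0106 to 0.0295). CEACAM5, CEACAM6, CEACAM7 and CEACAM1 are close paralogs, so how the counting divided reads that match several of them may move these values.

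VIL1 fell with rosiglitazone at both times and rose with both LXR agonists at 48 h. At 24 h DMSO libraries stood at 183, 179, 166 and 171 CPM and rosiglitazone libraries at 124, 118, 130.1 and 118 CPM, and VIL1 fell by 0.52 on the log2 scale (standard error 0.0639, adjusted p = 7.19e-06). GW3965 at 145 to 175 CPM and T0901317 at 157 to 179 CPM overlapped with DMSO. At 48 h the rosiglitazone libraries stood at 92.0, 79.0, 53.3 and 68.5 CPM against 143, 153, 145 and 138 CPM with DMSO, and VIL1 fell by 1.004 (0.107, adjusted p = 4.89e-07). Both LXR agonists went the other way at that time. GW3965 libraries stood at 230.2, 241, 256 and 229 CPM and T0901317 libraries at 234, 229, 217 and 236 CPM, with log2 fold changes of 0.72 (0.105, adjusted p = 1.40e-05) and 0.66 (0.105, adjusted p = 4.07e-05). The highest rosiglitazone library and the lowest library of either LXR agonist were separated by more than a factor of 2. USP37 overlaps VIL1 in RefSeq, and its own log2 fold change with rosiglitazone was -0.09 at 24 h and -0.19 at 48 h, neither of which passed (adjusted p = 0.409 and 0.0833).

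CDH17 shared the fall with rosiglitazone. Libraries stood at 9.10, 10.2, 10.1 and 11.8 CPM with DMSO and at 6.77, 6.90, 7.77 and 7.81 CPM with rosiglitazone at 24 h, and at 7.58, 7.61, 8.35 and 6.86 against 3.79, 4.28, 5.23 and 4.91 CPM at 48 h. The log2 fold changes were -0.50 (standard error 0.0846, adjusted p = 0.000247) and -0.76 (0.134, adjusted p = 0.000155). T0901317 gave 0.29 at 24 h, which did not pass (adjusted p = 0.0747). Its change of 0.50 at 48 h (0.125) did (adjusted p = 0.00301), but the call was lost without DMSO replicate 4 or T0901317 replicate 3 or 4 (adjusted p = 0.0130 to 0.0146). GW3965 gave 0.24 and 0.31, which did not pass. ANPEP, the other brush border gene that could be tested, was near the detection limit. Its rosiglitazone libraries at 48 h, at 0.157, 0.357, 0.381 and 0.196 CPM, lay below all DMSO libraries, at 0.647, 0.590, 0.830 and 0.593 CPM. The log2 fold change of -1.31 (0.357) passed (adjusted p = 0.00688), but not without any single DMSO library or rosiglitazone replicate 1 or 4 (adjusted p = 0.0115 to 0.0275), nor in the fit of both times (adjusted p = 0.0629).

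**Figure D3:**
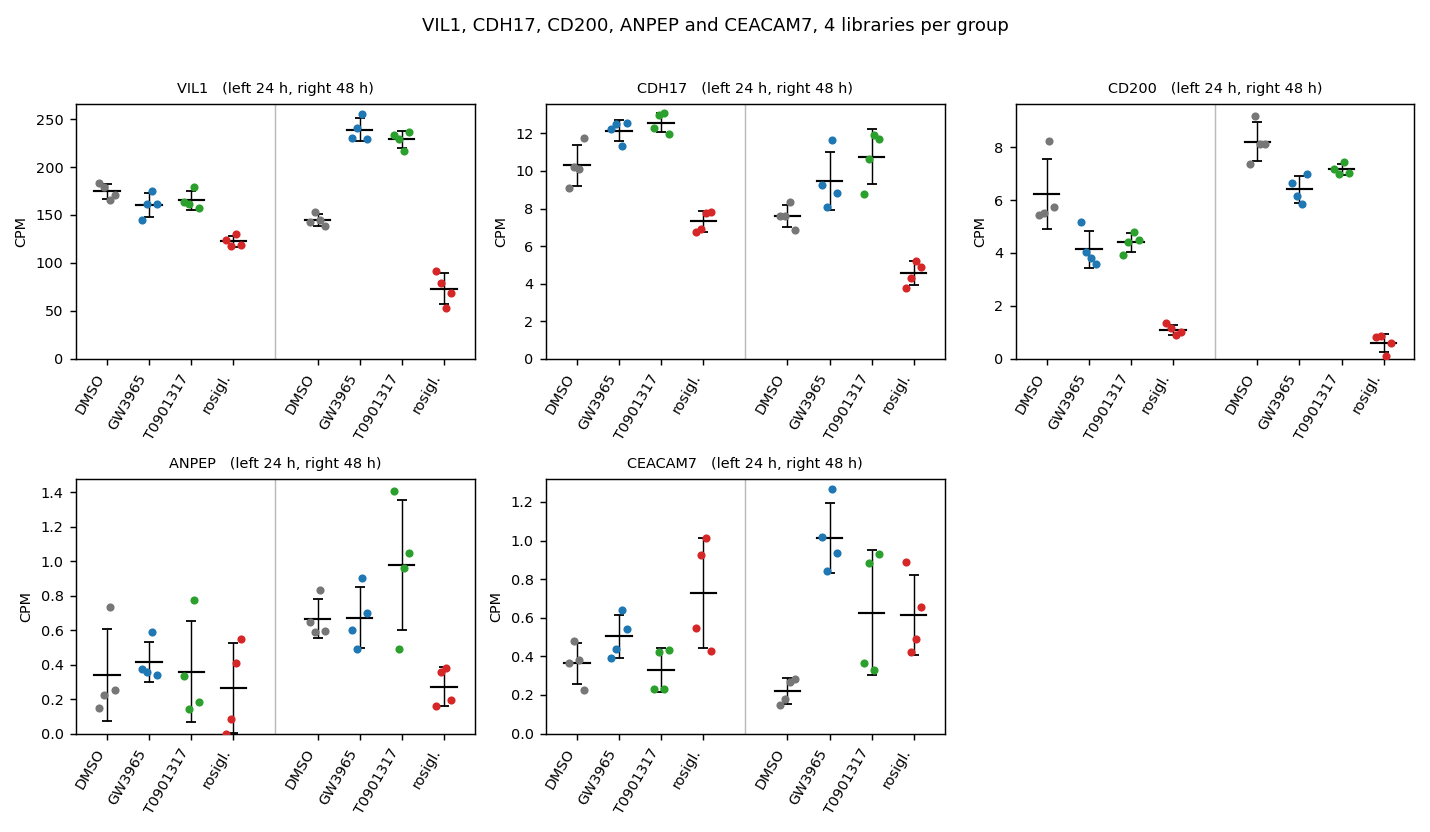
CPM (y axis, from 0) of VIL1, CDH17, CD200, ANPEP and CEACAM7 in each library (points) of the 4 groups at 24 h (left in each panel) and 48 h (right), with bars for the mean and SD of 4 libraries. Rosiglitazone libraries are the lowest of each time for VIL1, CDH17 and CD200, while VIL1 with either LXR agonist at 48 h lies between 217 and 256 CPM.

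CD200 had the widest range over the groups, a ratio of 13.8 between the highest mean (DMSO at 48 h) and the lowest (rosiglitazone at 48 h). DMSO libraries stood at 5.45, 5.53, 8.22 and 5.75 CPM at 24 h and at 7.38, 9.18, 8.13 and 8.13 CPM at 48 h, whereas rosiglitazone libraries stood at 1.35, 1.15, 0.916 and 1.01 CPM and at 0.811, 0.875, 0.109 and 0.589 CPM. CD200 was 5.62 times lower with rosiglitazone at 24 h and 14.1 times lower at 48 h. The 48 h library at 0.109 CPM held 4 counts, and without it the difference was 10.9 times (adjusted p = 8.16e-13). GW3965 libraries lay below DMSO at both times without overlap, at 3.58 to 5.16 and at 5.83 to 6.98 CPM, but the log2 fold changes of -0.60 and -0.36 did not pass (adjusted p = 0.0164 and 0.1). The former passed without GW3965 replicate 1 (adjusted p = 0.00262). With T0901317 the changes were -0.51 and -0.20, which did not pass. Its 24 h libraries, at 3.91 to 4.78 CPM, also lay below DMSO without overlap, while those of 48 h overlapped with DMSO.

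Between the times in DMSO alone, 4 of the 9 genes passed, 2 upward and 2 downward, shares near the 19.7% and 18.9% of the 23140 genes tested over both times. CEACAM6 fell by 1.27 on the log2 scale from 24 to 48 h (standard error 0.0982, adjusted p = 1.60e-12) and CDH17 by 0.44 (0.108, adjusted p = 0.00108). CEACAM1 rose by 0.97 (0.0666, adjusted p = 9.86e-14) and KRT20 by 0.36 (0.0969, adjusted p = 0.00231). CEACAM5 stood at 15.5 ± 0.751 and 16.2 ± 1.39 CPM (SD, n = 4), with a difference of 0.06 (95% interval -0.25 to 0.38). All 12 tested proliferation markers were lower at 48 h than at 24 h in DMSO, with a median of -0.81 against 0.00 for all genes, and the part of growth or density in the time differences was not tested.

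Whether a drug's response itself differed between the times was tested as an interaction over all 32 libraries. For GW3965, 3 genes passed upward, against 9.96% of all genes upward and 11.7% downward, and these were VIL1, CEACAM6 and CEACAM7. The response of VIL1 was larger by 0.85 (standard error 0.127, adjusted p = 4.15e-06), from -0.12 at 24 h to 0.72 at 48 h, and that of CEACAM6 by 0.66 (0.135, adjusted p = 0.000269). With GW3965 the mean of VIL1 rose from 161 to 239 CPM between the times. That of CEACAM6 fell from 57.4 to 37.7 CPM, while its DMSO mean fell from 42.6 to 17.7 CPM, so its larger response was measured against a lower control. CEACAM7, at 1.71 (0.510, adjusted p = 0.00962), lost the call in 13 of the 16 cases in which 1 library was left out (adjusted p of up to 0.0284). For T0901317, VIL1 passed upward by 0.74 (0.127, adjusted p = 3.34e-05) and KRT20 downward by 0.51 (0.137, adjusted p = 0.00523), against 7.49% upward and 9.95% downward of all genes. The call of KRT20 was lost without DMSO replicate 2, T0901317 replicate 1 or 2 of 24 h, or without DMSO replicate 3 or 4 or T0901317 replicate 3 of 48 h, with an adjusted p of up to 0.0124. CEACAM7, with 1.66 (adjusted p = 0.0208), passed without T0901317 replicate 1 or 3 of 48 h (adjusted p = 0.00992 and 0.00789). For rosiglitazone 0 genes passed in edgeR, while 1.38% of all genes passed upward and 1.06% downward. In DESeq2 3 passed, where 1026 of all genes passed against 566 in edgeR. An unadjusted p under 0.05 was found for 6 in edgeR, but the share of all genes at that threshold was not computed. The change of the response was -1.31 for CD200 (95% interval -1.96 to -0.65) and -0.47 for VIL1 (-0.73 to -0.21), with adjusted p of 0.0111 and 0.0217. Without rosiglitazone replicate 1 of 48 h, KRT20, VIL1 and CD200 passed (adjusted p = 0.00159, 0.000434 and 0.00331). CD200 also passed without DMSO replicate 3 of 24 h (adjusted p = 0.00352) or rosiglitazone replicate 2 of 48 h (adjusted p = 0.0052), and CEACAM1 without rosiglitazone replicate 1 of 24 h (adjusted p = 0.00778).

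The LXR agonists were compared directly at the shared dose of 10 μM. At 24 h, 1 gene was higher with T0901317 and 2 were lower, against 0.597% and 0.193% of all genes, and at 48 h 1 was higher and 3 were lower, against 3.32% and 5.03%. CEACAM1 was higher with T0901317, with a difference at 24 h of 0.43 (standard error 0.0697, adjusted p = 0.00142) and later of 0.60 (0.0626, adjusted p = 7.37e-06). CEACAM5 was lower by 0.62 (0.0591, adjusted p = 3.80e-06) and 0.85 (0.192, adjusted p = 0.00485), and KRT20 was lower by 0.40 (0.0505, adjusted p = 8.99e-05) and 0.52 (0.119, adjusted p = 0.00547). CEACAM6 was lower by 0.17 at 24 h, which did not pass (adjusted p = 0.240), and by 0.48 at 48 h (0.111, adjusted p = 0.00594). At 24 h CEACAM1 lost its call without GW3965 replicate 2 (adjusted p = 0.0105) and when only these 2 groups were fitted (adjusted p = 0.0105). KRT20 lost its call in that fit (adjusted p = 0.0111) and in the fit of both times (adjusted p = 0.0187), and CEACAM5 in the latter (adjusted p = 0.0262). At 48 h the calls of KRT20, CEACAM5 and CEACAM6 were lost in 7, 6 and 5 of the 8 cases in which 1 library was left out, with adjusted p from 0.0114 to 0.0262 and no change of direction. VIL1 was close between the agonists, with differences of 0.04 (95% interval -0.09 to 0.18) and -0.06 (-0.27 to 0.16), and so was CDH17, with 0.05 (-0.12 to 0.22) and 0.19 (-0.07 to 0.44).

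**Figure D4:**
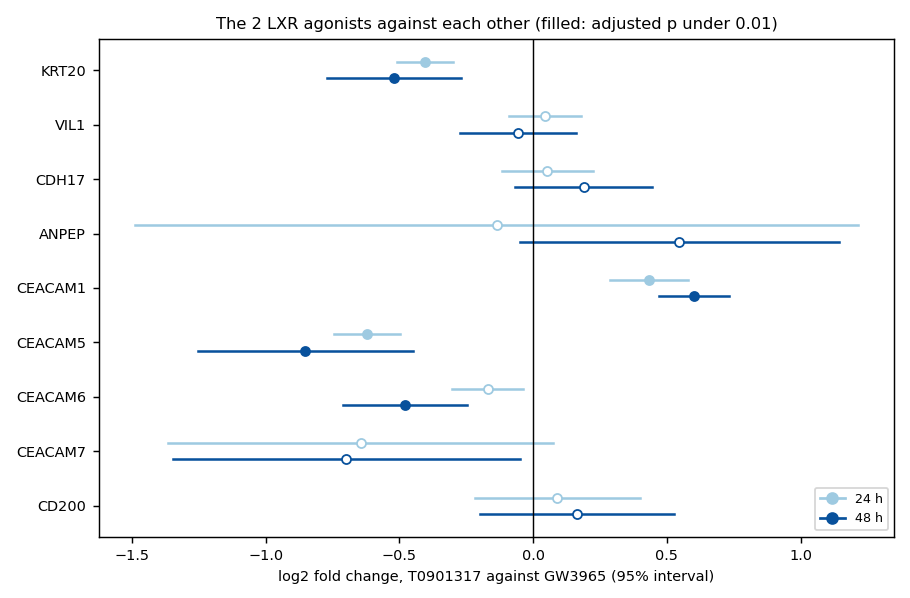
Log2 fold change of T0901317 against GW3965 (x axis) of the 9 tested genes (rows) at 24 h (light) and 48 h (dark), with 95% intervals; filled points passed at an adjusted p under 0.01. CEACAM1 lies to the right of 0 at both times (0.43 and 0.60), CEACAM5 and KRT20 lie to the left, and VIL1 lies at 0.04 and -0.06.

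Rosiglitazone against GW3965 gave 4 genes higher and 3 lower at 24 h, against 4.6% and 6.09% of all genes, and 3 higher and 4 lower at 48 h, against 22.4% and 22.6%. KRT20 was higher with rosiglitazone, with differences of 0.55 (standard error 0.0504, adjusted p = 1.59e-07) and 1.32 (0.121, adjusted p = 1.74e-08) at the successive times. VIL1 was lower by 0.39 (0.0638, adjusted p = 0.000168) and by 1.72 (0.108, adjusted p = 9.56e-11). CEACAM6 was higher at 24 h by 0.62 (0.0623, adjusted p = 5.14e-07), while at 48 h the difference of 0.23 (95% interval -0.01 to 0.46) did not pass and the groups overlapped.

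The chi-square per gene between rosiglitazone libraries reached 53.1 at 48 h and 14.1 at 24 h. KRT20 and CEACAM5 were lowest in replicate 1, then higher in replicates 2, 4 and 3, and VIL1 had the reverse order. PLIN2, a lipid droplet gene and PPARG target, had the order of KRT20, with 99.8 CPM in replicate 1, 137 in replicate 2, 166 in replicate 4 and 225 in replicate 3. PDK4 had that order too, while ANGPTL4, a secreted lipase inhibitor and PPAR target, did not, with 20.4 CPM in replicate 1, 26.6 in replicate 4, 27.3 in replicate 2 and 35.5 in replicate 3. The TMM factors of these libraries, 0.872 to 0.940, were the lowest of the series, that of replicate 3 being the lowest. Whether the spread of the 10 genes came with the extent of the drug response, the library or the culture was not tested. Without replicate 3 the log2 fold change of KRT20 was 1.58 (adjusted p = 6.42e-11), that of CEACAM5 was 1.41 (adjusted p = 3.78e-07) and that of VIL1 was -0.88 (adjusted p = 4.94e-08), and all 9 genes still passed.

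The genes most like each member were found by the smallest root mean square difference of the 6 log2 fold changes against DMSO, among up to 14002 genes with a mean of at least 1 on the log2 CPM scale, a description over 6 comparisons that share controls. The gene nearest to KRT20 was CEACAM5, with a difference of 0.185, followed by ANKRD56 (now SOWAHB), with 0.243. ANKRD56 was also nearest to CEACAM5, with 0.163. The gene nearest to CEACAM1 was its antisense neighbour AC011497.1 (LIPE-AS1), with 0.0869, where the shared stretch of genome applies. GPX3, a glutathione peroxidase, and ST6GALNAC4, a sialyltransferase, were nearest to CEACAM6, with 0.130 and 0.165. MAGED2 and RP1-80B9.2 (GMDS-DT) were nearest to CDH17, with 0.0722 and 0.0786, and GATS and SLC26A6, an anion exchanger, were nearest to VIL1, with 0.0914 and 0.0918. The genes nearest to CD200 were NCRNA00261 and NOX1, an NADPH oxidase, with 0.324 and 0.440, and NCRNA00261 had log2 fold changes of -2.16 and -3.55 with rosiglitazone at 24 and 48 h. SH3PXD2B and TCEAL4 were nearest to ANPEP, with 0.149 and 0.175, and AC004980.8 and AC005522.7 to CEACAM7, with 0.242 and 0.248. The standard errors of the log2 fold changes against DMSO were larger than these distances, at 0.293 to 0.697 for ANPEP and 0.325 to 0.398 for CEACAM7. The neighbours of ANPEP and CEACAM7 are therefore uncertain.

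Other genes of the enterocyte program did not move as 1 block. Among 23 tested genes of brush border structure at 48 h, GW3965 raised 10 and lowered 3, with a median log2 fold change of 0.29 against 0.00 for all genes, where 16.1% of all genes rose and 17.5% fell. T0901317 raised 9 and lowered 4, with a median of 0.07 against 0.01, where 14% rose and 16.1% fell, so that the share lowered was near that of all genes. PDZD3, a scaffold protein, and ESPN, the actin bundler espin, rose by 1.77 (standard error 0.192, adjusted p = 3.91e-07) and 1.35 (0.137, adjusted p = 1.57e-07) with GW3965 and by 1.61 and 1.28 with T0901317, while EZR, which encodes ezrin, fell by 0.84 (adjusted p = 1.65e-07) and 0.76 (adjusted p = 6.58e-07). Rosiglitazone raised 6 and lowered 6, with a median of 0.06 against -0.01, where 12.3% of all genes rose and 13.1% fell. ESPN rose by 1.35 and CDHR5, an adhesion protein that links microvilli, by 1.19, whereas MYO1A, a brush border myosin, fell by 1.60 (0.324, adjusted p = 0.000631) and PLS3 by 0.73 (adjusted p = 1.44e-07). Among the 10 tested hydrolases, rosiglitazone lowered 6 at 48 h, with a median of -0.81. SI, which encodes sucrase-isomaltase, fell by 2.99 (0.237, adjusted p = 9.59e-09), from 3.13 ± 0.767 to 0.399 ± 0.0572 CPM (SD, n = 4), and ENPEP by 0.997 (adjusted p = 0.00154). SI rose with both LXR agonists, by 0.61 (adjusted p = 0.00617) for GW3965 and by 0.99 (adjusted p = 8.67e-05) for T0901317. The hydrolases as a list did not share this rise. Of the 10 tested, GW3965 raised 3 and lowered 3 at 48 h, with a median of -0.03, against 16.1% and 17.5% of all genes. T0901317 raised 2 and lowered 1, with a median of 0.17, near the 14% and 16.1% of all genes.

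Among 12 tested genes of absorptive colonocytes, each LXR agonist raised 6 and lowered 1 at 48 h, with medians of 0.40 and 0.38, while rosiglitazone raised 2 and lowered 3, with a median of -0.40. Against the same shares of all genes, 16.1% and 17.5% for GW3965, 14% and 16.1% for T0901317 and 12.3% and 13.1% for rosiglitazone, the count raised by rosiglitazone was near that of all genes. CA2, which encodes carbonic anhydrase II, rose by 1.52 with T0901317 (standard error 0.213, adjusted p = 9.88e-06), and HPGD, a prostaglandin dehydrogenase, rose by 0.84 with rosiglitazone (adjusted p = 5.37e-09). Of the 5 other keratins of simple epithelium, KRT23 and KRT19 rose with rosiglitazone at 48 h, by 0.61 (adjusted p = 0.00751) and 0.28 (adjusted p = 0.000408), against 1.75 for KRT20. Of these 5, rosiglitazone raised 2 and lowered 0, GW3965 raised 1 and lowered 0, and T0901317 raised 0 and lowered 3, against the same shares. Of the 19 genes of adhesion and junctions, rosiglitazone raised 6 and lowered 3 at 48 h, against 12.3% and 13.1% of all genes, the latter near the share lowered. GW3965 raised 6 and lowered 4 of them, against 16.1% and 17.5%, and T0901317 raised 5 and lowered 4, against 14% and 16.1%. With rosiglitazone DSC2, a desmosomal cadherin, rose by 0.75 (adjusted p = 4.05e-07). CLDN2 and CLDN1, claudins of tight junctions, fell by 1.60 (adjusted p = 4.81e-05) and 1.17 (adjusted p = 8.92e-07) with it. Of 7 further CEACAM genes 3 could be tested. CEACAM3, the protein-coding gene next to CEACAM6, rose with rosiglitazone at 48 h by 1.25 (adjusted p = 0.0074) and is named after its value was seen, and CEACAM18 rose between the times in DMSO by 1.31 (adjusted p = 0.000637).

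Markers of other lineages moved in the same libraries, with the LXR agonists as well. T0901317 lowered 5 of the 8 tested goblet cell markers at 48 h, with a median of -0.50 against 0.01 for all genes, MUC2, a secreted mucin, falling by 0.78 (adjusted p = 4.57e-05), while GW3965 raised 2. GW3965 raised 5 of 10 tested stem cell markers and lowered 1 (median 0.38 against 0.00), and T0901317 raised 4 and lowered 2 (median 0.26 against 0.01). ASCL2, a stem cell transcription factor, rose by 1.47 (adjusted p = 5.68e-06) for GW3965 and 1.02 (adjusted p = 0.000378) for T0901317. Of 4 tested enteroendocrine markers GW3965 raised 2, T0901317 lowered 1 and rosiglitazone lowered 2. Over all genes at 48 h, 16.1% rose and 17.5% fell with GW3965, 14% and 16.1% with T0901317, and 12.3% and 13.1% with rosiglitazone. The counts of stem cell markers lowered by the LXR agonists, goblet cell markers raised by GW3965 and enteroendocrine markers lowered by T0901317 were near these shares. All 8 tested goblet cell markers were lower with rosiglitazone at 48 h, with a median of -1.93 against -0.01 for all genes. At 24 h 6 were lower, against 6.52% of all genes. The summed level of the 10 goblet cell markers was 484 to 576 CPM with DMSO and 190.3 to 239.6 CPM with rosiglitazone at 48 h. ATOH1, a secretory lineage factor, fell by 4.32 (standard error 0.385, adjusted p = 5.08e-08) and REG4 by 3.16 (0.0891, adjusted p = 4.29e-15). ZG16 had no count in either group at 48 h. Of the 10 stem cell markers, 2 rose and 3 fell with rosiglitazone at 48 h, with a median of -0.16 against -0.01, where 12.3% of all genes rose and 13.1% fell. EPHB2 rose by 1.26 (0.18, adjusted p = 1.81e-05), while EPHB3, an ephrin receptor of the same family, fell by 2.11 (0.116, adjusted p = 5.83e-11) and PROM1 by 1.43 (0.104, adjusted p = 3.04e-09). The part of a change in cell composition in the levels of KRT20, VIL1, the CEACAM genes and CD200 was not tested.

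**Figure D5:**
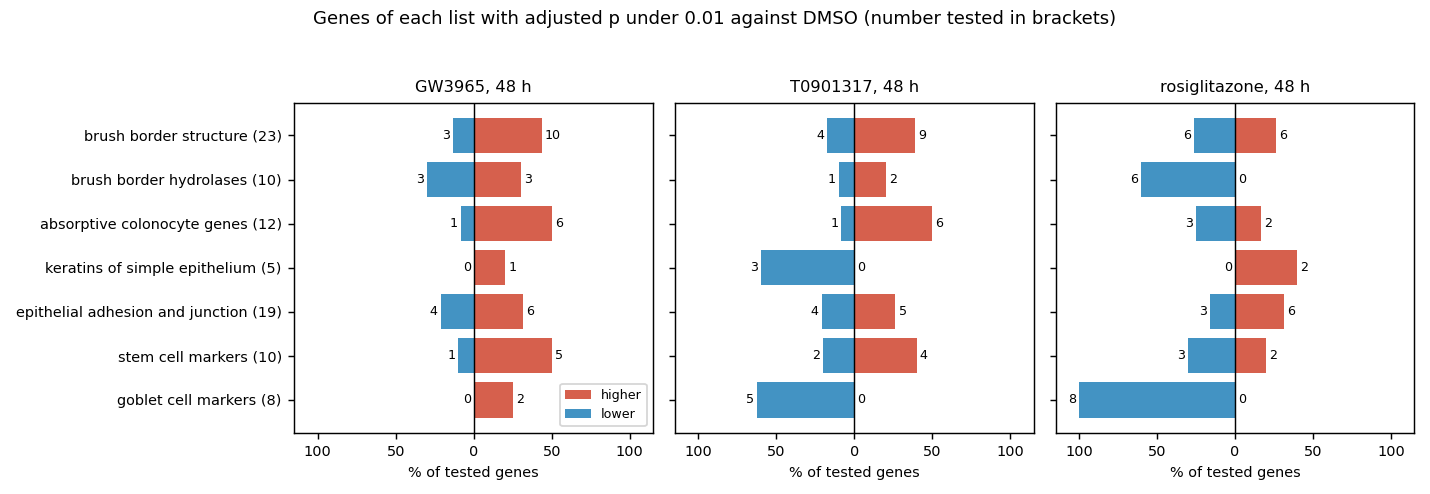
Share (x axis, % of tested genes) of each gene list (rows, number tested in brackets) that passed the test against DMSO at 48 h, higher to the right and lower to the left, with the number of genes at the bar ends. With rosiglitazone all 8 goblet cell markers and 6 of 10 hydrolases are lower, while 10 of 23 genes of brush border structure are higher with GW3965. Over all genes 13.1% were lower with rosiglitazone and 16.1% higher with GW3965.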

How the data were processed

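RNA-seq of HT29 cells was analysed in 32 libraries, 4 in each of 8 groups, grouped by their titles. The libraries were made from mRNA with a Nextera kit and read from both ends. The counts deposited by the authors are unnormalized whole numbers for each Ensembl gene, with a separate table for 24 and 48 h. The labels' processing notes name TopHat, Cufflinks and hg19. The strand setting is not given in the sources used here. Of the 82 samples, the ChIP-seq samples and their 34 peak files were not used here, because the only gene positions available were of another build.

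Each time point was fitted with edgeR 4.0.16 in R 4.3.3 (filterByExpr, TMM, glmQLFit, glmQLFTest; no covariate), and the differences between times with all libraries in 1 fit. Adjusted p-values are Benjamini-Hochberg over all genes. Levels are CPM from the fit of 32 libraries. Totals were 21044798 to 51332656 counts, and the biological coefficient of variation was 0.0981 at 24 h and 0.101 at 48 h. The fits were tested on simulated data. DESeq2 1.42.0, other scalings, filters, thresholds and fits, a replicate block and the omission of each library were alternatives. Replicate libraries differed by more than sampling noise (chi-square per gene of at least 3.66).

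The members and lists were chosen with earlier results of these data known. The genes named are all members, up to 2 genes per list, direction and comparison with the largest change among those that passed with a mean of at least 1 CPM, the 2 genes nearest to each member, and the drug targets. Promoters are from RefSeq (GRCh38.p14), aligned end to end (match 1, mismatch -1, gap -2). Figures were drawn with matplotlib.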

Additional observations from a re-analysis of the deposited data

Results flagged for a closer look

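In 3 of 72 groups of 4 libraries 1 library lay far from the others by Dixon's test, and chance gives about 5% of groups. ANPEP was 0.592 CPM in replicate 3 of GW3965 at 24 h, against 0.342 to 0.372 CPM in the other libraries. CEACAM6 was 83.4 CPM in replicate 1 of rosiglitazone at 24 h, against 89.9 to 90.7 CPM. CD200 was 8.22 CPM in replicate 3 of DMSO at 24 h, against 5.45 to 5.75 CPM, and without this library CD200 passed as higher in DMSO at 48 h than at 24 h (log2 fold change 0.55, adjusted p = 0.0097).

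In 5 cases the response to an LXR agonist differed between 24 and 48 h by the interaction test of edgeR over 32 libraries. The difference of the log2 fold changes for GW3965 was 0.85 for VIL1 (adjusted p = 4.15e-06), 0.66 for CEACAM6 (adjusted p = 0.000269) and 1.71 for CEACAM7 (adjusted p = 0.00962). For T0901317 it was -0.51 for KRT20 (adjusted p = 0.00523) and 0.74 for VIL1 (adjusted p = 3.34e-05).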

How the results depend on the processing

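Each count of genes that passed, per comparison, was recomputed under other settings and with each library left out. No log2 fold change of a gene that passed changed direction. DESeq2 counted 5 with GW3965 at 24 h, 2 with T0901317 at 24 h and 3 for the rosiglitazone response between times. Over all genes it counted 502 against 315 in edgeR (T0901317, 24 h), 372 against 172 and 2887 against 1878 (T0901317 against GW3965, 24 and 48 h) and 1026 against 566 (rosiglitazone response). With library size alone the median of all genes moved by -0.18 for rosiglitazone at 48 h, by -0.14 for rosiglitazone against GW3965 at 48 h and by -0.10 for the rosiglitazone response. The share of calls that were higher then went from 48.4% to 20.1% (rosiglitazone, 48 h), 47.1% to 25.2% (rosiglitazone, 24 h), 68.2% to 55.4% (GW3965, 24 h), 39.8% to 68.1% (T0901317 against GW3965, 48 h), 49.8% to 35.9% (rosiglitazone against GW3965, 48 h), 42.9% to 55.7% (T0901317 response) and 56.5% to 29.3% (rosiglitazone response). The response counts were then 1 for T0901317 and 3 for rosiglitazone. With no filter or a CPM filter the rosiglitazone response counted 1. All libraries in 1 fit gave 0 for T0901317 at 24 h and 1 for T0901317 against GW3965 at 24 h, as did the fit of these 2 groups alone (1). At an adjusted p under 0.05 the counts were 5 with GW3965 at 24 h, 2 with T0901317 at 24 h and 3 for the rosiglitazone response.

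With a fold of at least 1.5 the counts were 0 (T0901317, 24 h), 1 (T0901317 against GW3965, 24 h), 4 (rosiglitazone against GW3965, 24 h), 3 (GW3965, 48 h), 3 (T0901317, 48 h), 2 (T0901317 against GW3965, 48 h), 1 (T0901317 response) and 2 (DMSO between times). With a fold of at least 2 they were 0 for GW3965, T0901317 and T0901317 against GW3965 at 24 h. Rosiglitazone at 24 h had 4, against 0.78% of all genes higher and 1.4% lower, and rosiglitazone against GW3965 had 1, against 0.533% and 1.52%. At 48 h rosiglitazone had 4 higher and 3 lower, against 1.99% and 3.87%. Rosiglitazone against GW3965 had 2 higher and 4 lower at 48 h, against 5.39% and 8.4%. GW3965 at 48 h had 2, against 3.24% higher and 2.54% lower, and T0901317 had 1, against 2.8% and 2.59%. T0901317 against GW3965 at 48 h had 0. The GW3965 response had 1, against 2.32% and 2.37%, the T0901317 response 0 and DMSO between times 1, against 5.09% and 3.44%. At a fold of at least 1.5 the counts not listed changed less, and shares of all genes were not computed. By construction these thresholds count fewer genes, and the cause of the other shifts was not tested.

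With 1 library left out the counts ranged from 3 to 5 (GW3965, 24 h), 2 to 3 (T0901317 against GW3965, 24 h), 4 to 5 (GW3965, 48 h), 3 to 5 (T0901317, 48 h), 7 to 9 (rosiglitazone, 48 h), 1 to 3 (T0901317 against GW3965, 48 h), 6 to 7 (rosiglitazone against GW3965, 48 h), 2 to 3 (GW3965 response), 1 to 3 (T0901317 response), 0 to 3 (rosiglitazone response) and 4 to 5 (DMSO between times). They stayed at 1, 7 and 7 for T0901317, rosiglitazone and rosiglitazone against GW3965 at 24 h.

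Libraries of equal replicate number correlated little over all genes, with a mean correlation of deviations of 0.0104 at 24 h and 0.0109 at 48 h. At these times 4 and 7 of 16 libraries correlated best with their own number. At 48 h replicate 3 had the lowest share of mitochondrial counts in every group, at 1.85% (DMSO), 2.80% (GW3965), 2.57% (T0901317) and 2.37% (rosiglitazone). The largest chi-square per gene of each 48 h group also involved replicate 3. What libraries of 1 number share was not tested. With the replicate block CEACAM5 passed with GW3965 at 48 h (0.57, adjusted p = 0.0084), while CEACAM7 did not pass with rosiglitazone at 48 h (1.46, adjusted p = 0.0115) or for the GW3965 response (1.73, adjusted p = 0.0121). Over all genes the block changed the number that passed from 172 to 124 for T0901317 against GW3965 at 24 h and in a smaller ratio elsewhere. Peaks near the genes could not give a value. Depth limits ALPI, ANPEP and CEACAM7.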
